A study of Mus musculus with 12 samples.

Results

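This account follows 6 genes of the astroglial membrane across 3 states of adult neural stem cells: Aqp4, Gja1, Gjb6, Gjb2, Mlc1 and Hepacam. They were taken by name, as the probe sets whose single gene symbol in the platform annotation is one of these. The rule found all 6 among the 18193 genes with a symbol of their own, with 14 probe sets in all: 6 for Gja1, 3 for Aqp4, 2 for Hepacam and 1 each for Gjb6, Gjb2 and Mlc1. A probe set is a group of short oligonucleotides that together give 1 intensity for a transcript.

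Astrocytes and the stem cells that resemble them handle water and ions and pass small molecules to each other through channels in their membranes. Aqp4 encodes the water channel of astroglial endfeet. Gja1, Gjb6 and Gjb2 encode connexin 43, connexin 30 and connexin 26, the subunits of astroglial gap junctions. Mlc1 encodes a membrane protein of astroglial junctions that takes part in cell volume regulation, and Hepacam encodes GlialCAM, the adhesion molecule that brings Mlc1 protein to cell contacts.

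The cells were sorted by flow cytometry from the subventricular zone, the germinal layer beside the lateral ventricles, of adult male C57B6J mice. They were quiescent stem cells, quiescent stem cells taken 48 h after irradiation, or activated stem cells, and no other treatment is named for any group. The labels describe 12 samples, each measured on 1 Affymetrix MOE 430 2.0 array, of which 10 had values in the table used. These are quiescent replicates 1, 2 and 4, irradiated replicates 1, 2, 3 and 4, and activated replicates 1, 2 and 3. The labels give no radiation dose, sorting markers, age in weeks or number of animals per sample. They do not say that replicates came from separate animals, so each p-value reflects the spread among these samples alone, and that spread may be technical.

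The 75th percentile of the arrays lay between 83 and 104, and between 56.6% and 59.2% of probe sets stood at an intensity of 10 or less, which is called near the lower limit here. Across genes, arrays correlated at 0.842 to 0.859 within quiescent, 0.821 to 0.867 within irradiated and 0.862 to 0.914 within activated cells, against 0.708 to 0.775 between quiescent and activated. Of 9 astrocyte and quiescent stem cell markers checked, all but Gfap (7 to 418 on quiescent arrays) exceeded 100 on each quiescent and irradiated array. Their summed intensity was 83982 to 90645 on quiescent, 81138 to 90508 on irradiated and 26228 to 35745 on activated arrays. Activated arrays held the proliferation antigen Mki67 at 9566 to 11152, against 9 to 161 on the others. These values go with the labels of the groups. With 3 or 4 arrays a group, the precision of each difference is limited by their number.

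The 6 genes were bright in both quiescent groups and lower in activated cells. On every activated array each of them lay below all quiescent and irradiated arrays, as did 5.91% of all genes, although 2 of the 6 did not pass the test against quiescent cells. Differences are on the scale of log2(intensity + 16), which understates the change of a gene near the lower limit, and come with their SE from limma, fitted across the whole gene table. Calls were made at a Benjamini-Hochberg adjusted p under 0.05. Between activated and quiescent cells, 4 of the 6 genes were called, all lower, where 3.12% of all genes were called lower. Arrays of activated cells all lay below those of quiescent cells for 6 of the 6 genes and for 9.47% of all genes. In bulk samples, fewer cells that hold a transcript and less of it per cell cannot be told apart.

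**Figure D1:**
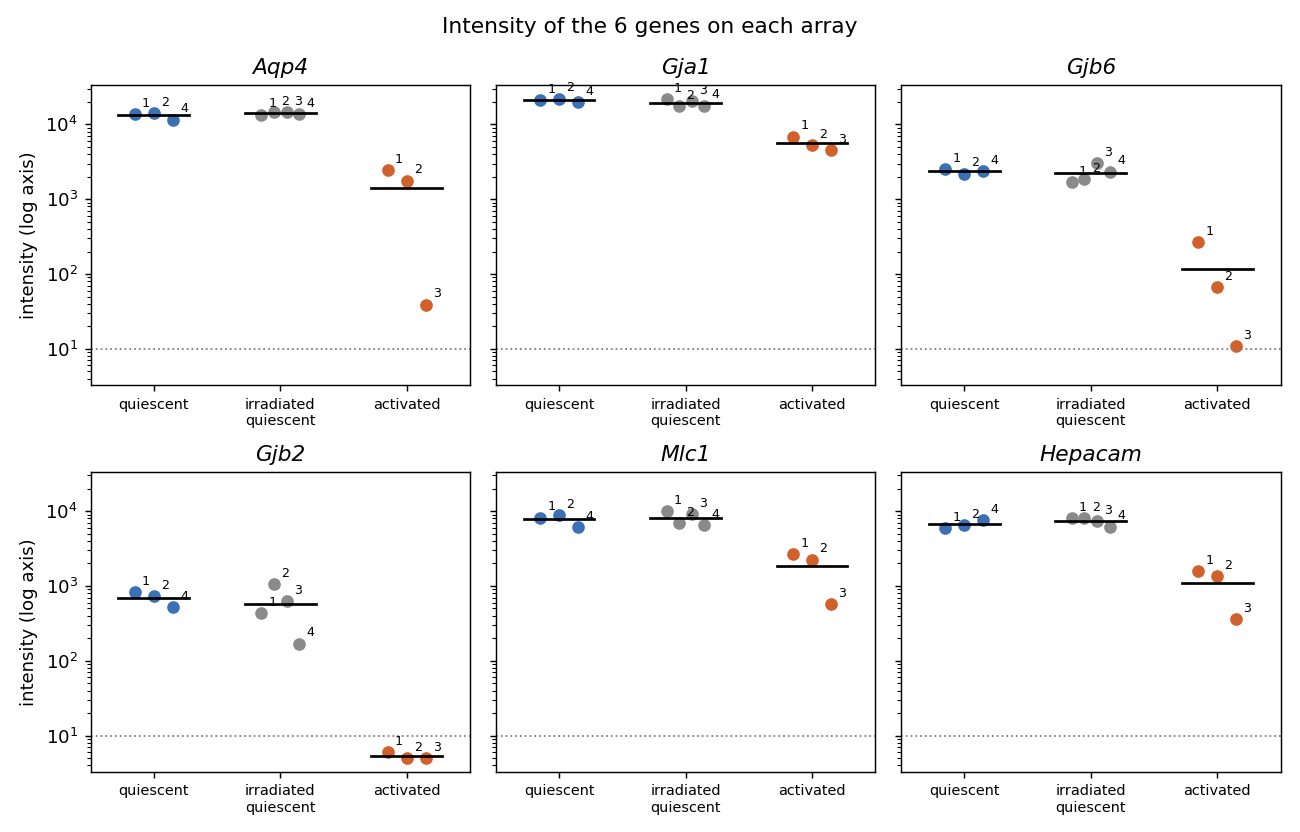
Intensity (log axis) of the brightest probe set of each gene on each of the 10 arrays; numbers are replicate numbers, black bars group means, and the dotted line the intensity of 10 called near the lower limit. Every activated array lies below every quiescent and irradiated array for each gene, and activated replicate 3 is the lowest activated array for Aqp4 (39), Gjb6 (11), Mlc1 (576) and Hepacam (360).

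Aqp4, the water channel gene, was the gene whose activated arrays differed most among themselves. Its brightest probe set, 1434449_at, read 13825, 14231 and 11570 on the quiescent arrays, and 13551, 14746, 14437 and 13703 on the irradiated ones. On activated replicates 1, 2 and 3 it read 2435, 1779 and 39. The first 2 activated arrays were thus still bright and the last was close to the lower limit, with no overlap between states. The difference between activated and quiescent cells was -4.40 ± 1.29 and did not pass (adjusted p = 0.116). Without activated replicate 3 it was -2.65 ± 0.15 and passed (adjusted p = 1.45e-04).

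The other probe sets of Aqp4 gave a tighter picture. Probe set 1425382_a_at stood at 4719 ± 1514 in quiescent cells (SD, n = 3) and at 301, 124 and 30 on the activated arrays. Probe set 1447745_at stood at 3606 ± 740.0 (SD, n = 3) against 83, 174 and 109. In the latter, activated replicate 3 was not the lowest array. In a fit over all 34945 probe sets with a single symbol, these probe sets differed by -5.18 ± 0.67 (adjusted p = 0.00424) and -4.75 ± 0.45 (adjusted p = 0.00102), and 1434449_at again did not pass (adjusted p = 0.123). Averaged over its 3 probe sets, Aqp4 differed by -4.77 ± 0.65 and passed (adjusted p = 0.00446).

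Among the connexin genes, Gja1 kept the most of its quiescent intensity. Probe set 1437992_x_at read 21157, 22141 and 20075 in quiescent cells, 21960, 17569, 20595 and 17829 in irradiated cells, and 6854, 5283 and 4557 in activated cells. All activated arrays were below all others and none was near the lower limit, so the gene remained well detected in activated cells. The fall was -1.94 ± 0.15 (adjusted p = 4.17e-04), to 26.3% of the quiescent mean, and it stayed called without any 1 array and in all the other settings tried.

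The 6 Gja1 probe sets gave falls of different size, a difference that was not tested itself. For 5 of them, activated cells kept 23.5% to 29.9% of the quiescent mean. The sixth, 1415801_at, read 11167, 13717 and 14615 in quiescent and 1956, 606 and 1497 in activated cells, which is 10.3%. Its difference was -3.41 ± 0.39, against -1.75 ± 0.15 for 1415800_at, and all 6 passed. The ending _x_at of 4 of these names marks probe sets with probes that may match other transcripts, and neither 1415800_at nor 1415801_at carries it.

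Gjb6, the connexin 30 gene, read 2528, 2202 and 2399 on quiescent arrays and 1705, 1845, 3074 and 2342 on irradiated arrays. Activated replicates 1, 2 and 3 read 268, 67 and 11, the last next to the lower limit. The fall was -4.80 ± 0.75 (adjusted p = 0.00978), to 4.85% of the quiescent mean. With only quiescent and activated arrays in the fit the same difference did not pass (adjusted p = 0.0892).

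Gjb2, the connexin 26 gene, was the only one of the 6 that reached the lower limit on all activated arrays. It read 824, 740 and 527 in quiescent cells and 429, 1058, 630 and 170 in irradiated cells, the widest spread there, relative to the mean, of the 6 genes. The activated arrays read 6, 5 and 5, which is near the lower limit and gives no level. Against an intensity of 10, the quiescent mean was at least 69.7-fold higher. The fall was -5.04 ± 0.57 (adjusted p = 0.00214) and it too stayed called without any 1 array and in the other settings tried. Its size depends on the pseudocount, since the activated arrays give no level, and over the settings it ran from -6.76 (pseudocount 1) to -3.44 (pseudocount 64).

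In the RefSeq gene table Gjb2 and Gjb6 are next to each other among protein-coding genes of chromosome 14, with the lens connexin gene Gja3 on the other side of Gjb2. Gja3 was near the lower limit on all arrays. The 250 bases before the start of the 3 connexin genes are shown because the neighbours Gjb2 and Gjb6 fell by more than Gja1, which lies on chromosome 10. They are RefSeq sequences of GRCm38.p6, read 5′ to 3′ on the strand of the gene: chr10:56377050-56377299 (plus strand) for Gja1, chr14:57133612-57133861 (minus) for Gjb6 and chr14:57104703-57104952 (minus) for Gjb2. Capitals mark every match, on either strand, to TGAGTCA (AP-1), GGGCGG (Sp1), ACAAAG (SOX), TTGGC (NFI) or TGGGAA (RBPJ).
Gja1: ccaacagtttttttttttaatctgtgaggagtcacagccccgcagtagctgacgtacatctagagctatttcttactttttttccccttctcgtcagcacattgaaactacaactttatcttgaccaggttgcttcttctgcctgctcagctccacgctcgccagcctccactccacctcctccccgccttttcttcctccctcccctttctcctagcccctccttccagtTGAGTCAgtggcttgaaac
Gjb6: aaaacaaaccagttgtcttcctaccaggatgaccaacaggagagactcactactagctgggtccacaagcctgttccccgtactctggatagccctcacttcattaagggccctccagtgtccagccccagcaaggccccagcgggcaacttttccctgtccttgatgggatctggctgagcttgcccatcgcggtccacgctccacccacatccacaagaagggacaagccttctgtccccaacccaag
Gjb2: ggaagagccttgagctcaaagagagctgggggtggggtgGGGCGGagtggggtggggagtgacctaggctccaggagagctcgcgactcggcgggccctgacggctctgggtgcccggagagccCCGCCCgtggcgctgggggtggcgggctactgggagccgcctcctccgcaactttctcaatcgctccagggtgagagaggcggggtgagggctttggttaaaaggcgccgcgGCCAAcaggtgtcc

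The neighbours' windows differ in composition, with 69.2% G and C bases for Gjb2, 56.8% for Gjb6 and 50% for Gja1, where the median of all 32851 windows was 52.4%. TGAGTCA was found in Gja1 alone of the 5 genes with an entry, 19 to 13 bases before the start, and in 4.46% of all windows. GGGCGG was found in Gjb2 alone, at 2 places, and in 32.7% of all windows. TTGGC was in Gjb2, Mlc1 and Hepacam (41.5% of all windows) and TGGGAA in Mlc1 (21.6%), while ACAAAG was in none of the 5 (16.5%). CANNTG, the E-box, which is not in capitals here and overlaps the AP-1 match of Gja1, was in all 5, as in 66.2% of all windows. A match is only a description of these letters.

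Mlc1 and Hepacam, whose proteins bind each other, differed less between states than Gjb6, as tested for pairs of genes further on; against Gjb2 this held with a pseudocount of 16 but not of 64. Mlc1 read 8208, 8886 and 6133 in quiescent cells, 10108, 6923, 9048 and 6504 in irradiated cells, and 2693, 2250 and 576 in activated cells. Activated replicate 3 was the low array again. The difference between activated and quiescent cells, -2.32 ± 0.55, just missed the threshold (adjusted p = 0.0533), and it passed without activated replicate 3 (-1.63 ± 0.25, adjusted p = 0.0136) or without activated replicate 1 (adjusted p = 0.0437). It also passed in 5 of 11 other settings, the scalings and averaged probe sets among them (adjusted p from 0.0268 to 0.211 over the 11). Mlc1 has 1 probe set, so averaging the probe sets of other genes left its difference at -2.32 and changed only its limma test (adjusted p = 0.0449).

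Hepacam read 5879, 6522 and 7672 in quiescent, 8053, 8143, 7345 and 6211 in irradiated and 1581, 1359 and 360 in activated cells with probe set 1434727_at. The fall was -2.83 ± 0.50 (adjusted p = 0.0172), a call lost without any one of the 3 quiescent arrays (adjusted p from 0.0506 to 0.0613) and with only quiescent and activated arrays in the fit (0.124). The second probe set, 1429023_at, read 5398, 6606 and 7249 against 516, 422 and 444 in activated cells. There the activated arrays were nearly level, with replicate 3 between the others. Its difference of -3.75 ± 0.15 was the most precise of the 14 probe sets relative to its size (adjusted p = 1.13e-05 over all probe sets). In all, 12 of the 14 probe sets were called lower in that fit, where 2.73% of probe sets were. Against irradiated cells and against the mean of both quiescent groups 13 of the 14 were, where 3.16% and 3.83% of probe sets were called lower.

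**Figure D2:**
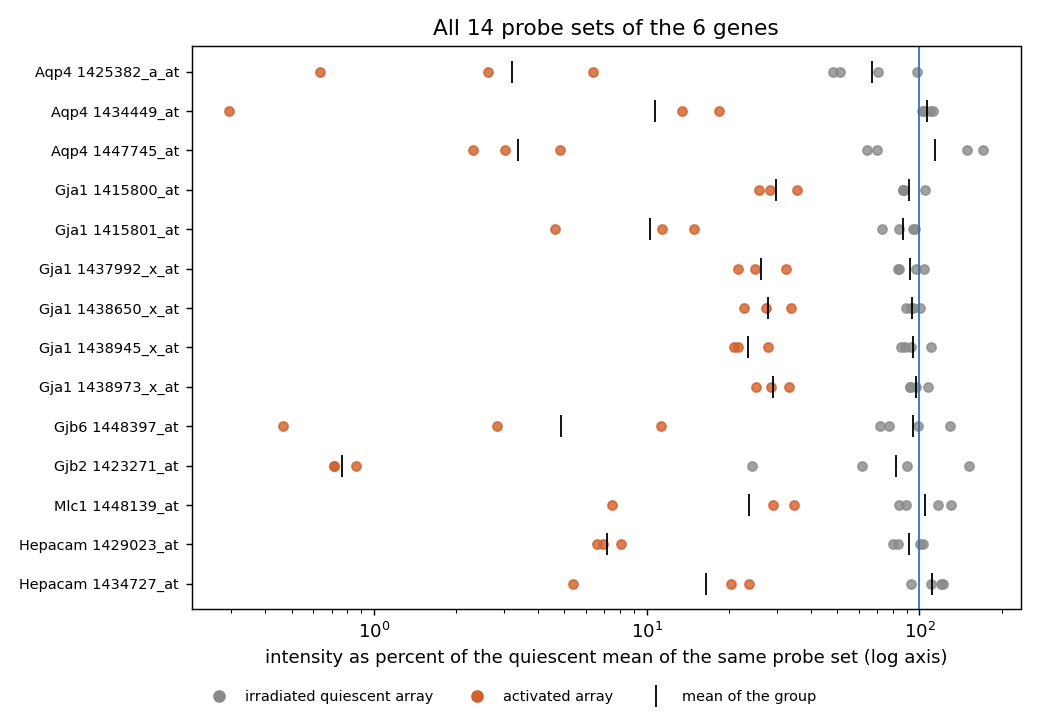
Intensity of each of the 14 probe sets on irradiated and activated arrays as a percent of its own quiescent mean (log axis, blue line at 100%); black ticks are group means. Activated means run from 3.21% for 1425382_a_at of Aqp4 to 29.9% for 1415800_at of Gja1, apart from Gjb2, whose activated arrays are near the lower limit and give no level, and the irradiated means from 66.8% to 114%.

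The comparison of irradiated with unirradiated quiescent cells asks whether these genes had moved 48 h after irradiation, and shares its quiescent arrays with the one above. None of the 6 was called, where 0.011% of all genes (2 of 18193) were, so the comparison had few calls anywhere; 723 genes had an unadjusted p under 0.05, none of them among the 6. Arrays of both groups overlapped for all 6 genes and all 14 probe sets; they were apart, in either direction, for 2.96% of all genes. Gja1 had the narrowest interval, with a difference of -0.12 and a 95% interval from -0.46 to 0.21 that leaves room for a moderate change. Intervals were -1.13 to 1.26 for Mlc1, -0.94 to 1.25 for Hepacam and -1.75 to 1.51 for Gjb6. Gjb2 had the largest difference, -0.52 (interval -1.77 to 0.73), with irradiated replicate 4 at 170 and replicate 2 at 1058. Aqp4 differed by 0.10 (interval -2.72 to 2.92), an interval that carries the spread of its activated arrays, since the groups share 1 estimate of it. A difference that does not pass does not show that the groups are alike.

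Activated cells were also set against irradiated quiescent cells, a comparison that shares its activated arrays with the first. Here 5 of the 6 genes were called lower, against 3.69% of all genes, and arrays of both groups were apart for 6 of the 6, against 7.96% of all genes in that direction. Gja1 fell by 1.82 ± 0.14 on the log2 scale (adjusted p = 3.51e-04) and Gjb2 by 4.52 ± 0.53 (0.00235). Gjb6 differed by -4.68 ± 0.70 (0.00706) and Hepacam by -2.98 ± 0.47 (0.00890), and both passed. Mlc1 passed with -2.38 ± 0.51 (adjusted p = 0.0326), a call lost when any 1 of 8 arrays was left out (adjusted p up to 0.0834, with irradiated replicate 3 left out). Aqp4 did not pass (-4.50 ± 1.21, adjusted p = 0.0774), but did so without activated replicate 3 (-2.75 ± 0.14, adjusted p = 8.58e-05).

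**Figure D3:**
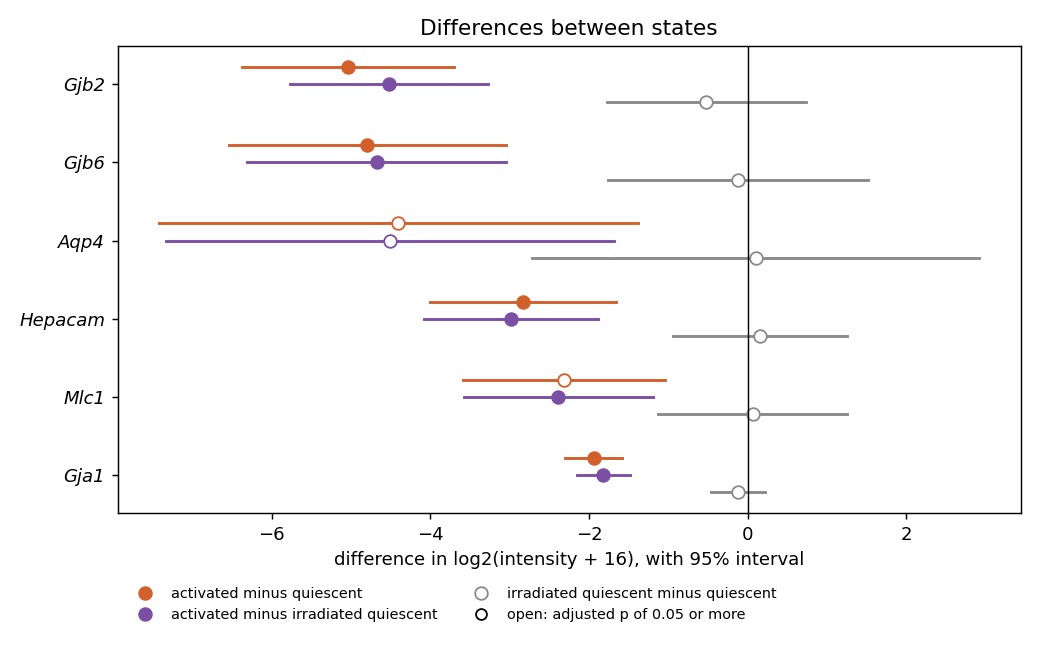
Difference in log2(intensity + 16) of each gene in the 3 comparisons, with 95% intervals from limma; filled points passed an adjusted p of 0.05. Differences of activated cells lie between -5.04 (Gjb2) and -1.82 (Gja1), and those of irradiated against unirradiated quiescent cells between -0.52 and 0.15.

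Against the mean of both quiescent groups, the differences were ordered Gjb2 (-4.78 ± 0.48), Gjb6 (-4.74 ± 0.63), Aqp4 (-4.45 ± 1.09), Hepacam (-2.91 ± 0.43), Mlc1 (-2.35 ± 0.46) and Gja1 (-1.88 ± 0.13). All but Aqp4 (adjusted p = 0.0505) passed, where 4.35% of all genes were called lower. Aqp4 passed in 6 of 10 other settings (adjusted p from 0.00161 to 0.166 over the 10) and without activated replicate 1 (0.0410) or 3 (5.91e-05). To see which neighbours in this order differ, the log2 difference between 2 genes within each array was compared between the 3 activated and the 7 quiescent and irradiated arrays. An exact two-sided permutation test over 120 splits was used for each of the 15 pairs, and 0.00833 is the smallest p it can give. After adjustment over the 15 pairs, 11 passed.

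Each of the 9 pairs of a gene from Gjb2, Gjb6 and Aqp4 with one from Hepacam, Mlc1 and Gja1 passed, with adjusted p from 0.0179 to 0.0375. The 3 such pairs that hold Gjb2 did not pass with a pseudocount of 64: its difference from Gja1 was then 1.31 (adjusted p = 0.0556), from Mlc1 -0.87 (0.295) and from Hepacam -0.34 (0.589). The pair of Gjb2 and Hepacam was also lost without any 1 of 7 arrays (highest adjusted p 0.114). Gjb6, for example, fell by 2.86 more than Gja1 on the log2 scale, and their difference did not overlap between activated and other arrays. Within the first 3 genes no pair passed (adjusted p from 0.673 to 0.958), so their order is not settled. Without activated replicate 3, Aqp4 fell by less than Gjb6 (1.18) and Gjb2 (2.02), both passing (adjusted p = 0.0379), and its difference from Hepacam (-0.45) did not pass (0.0641). Hepacam fell by more than Gja1, by 1.04 (adjusted p = 0.0179; 0.52 without activated replicate 3), and by more than Mlc1, by 0.56 (adjusted p = 0.0455, a call lost without any 1 of 7 arrays), whereas Mlc1 and Gja1 did not pass (0.48, adjusted p = 0.240). Because Gjb2 is at the lower limit in activated cells, the size of its pair differences is set in part by the pseudocount. With averaged probe sets 11 pairs passed again, with a pseudocount of 64 only 7 did, and without activated replicate 1 or 2, which leaves 36 splits, none did (smallest adjusted p 0.0521 and 0.0595).

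With the brightest probe set of each gene, activated replicate 3 was the lowest activated array for all 6 genes, level with replicate 2 for Gjb2. This array was not the lowest with 1447745_at of Aqp4, 1429023_at of Hepacam or 1415801_at of Gja1. The summed astrocyte markers were 26228 there and 35745 and 29116 on activated replicates 1 and 2. Its summed microglia and macrophage markers were 6059 against 583 and 567, with Csf1r at 2520, while Tmem119, C1qa and Ptprc did not exceed 10 on any array. The part of either in the low values was not tested. Without this array all 6 genes were called lower in each of the 3 comparisons of activated cells. Over fits that each left out 1 array, 784 to 1051 of all 18193 genes were called against quiescent cells, in either direction. Against irradiated cells 937 to 1228 were, and against the mean of both quiescent groups 1034 to 1396. The share called lower without this array alone is not given.

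Markers of other cell types also differed between states. Neuroblast markers summed to 601 to 1898 on quiescent, 309 to 2189 on irradiated and 23717 to 30593 on activated arrays. Of the 6, 5 were called higher in activated than in quiescent cells, where 1095 of all 18193 genes were called, 567 of them lower. Among the neuroblast markers Dcx, the doublecortin gene, read 426, 324 and 756 on the activated arrays and 5 on all others. Oligodendrocyte markers (7 of 8 measured) summed to 20319 to 28115 on quiescent, 16759 to 27017 on irradiated and 1743 to 5156 on activated arrays. Ependymal cells carry Aqp4 and Gja1 as well; all 7 of their markers were measured, with sums of 4905 to 9214, 2226 to 9031 and 585 to 2137 in the same order, nearly all of it Pltp and Rarres2, while Foxj1, Ccdc153 and Tmem212 did not exceed 18 on any array. Meningeal fibroblasts, a known site of Gjb2, and pericytes had sums of 1754 to 3998, 1790 to 9296 and 175 to 508 over 9 markers. These sums do not tell the cell types apart. Pdgfrb was the largest on quiescent and irradiated arrays, except irradiated replicate 2 (698, with Col1a2 at 966). Dcn and Lum were near the lower limit everywhere. Slc6a13 read 4 and Ogn 5 on each quiescent and irradiated array. On activated arrays Slc6a13 reached 91 (replicate 3) and Ogn 42 and 15 (replicates 1 and 3). Choroid plexus markers summed to 10802 to 17881, 10048 to 20139 and 37 to 128 over 6 markers. On quiescent and irradiated arrays nearly all of this was Ttr, which read 6 on each activated array. Folr1 was near the lower limit, Kcne2 did not exceed 14 and Clic6 did not exceed 61 on any array. Kl exceeded 17 only on irradiated replicate 2 (238). Otx2 read 10 to 15 on quiescent, 21 to 122 on irradiated and 11 to 102 on activated arrays. Endothelial markers (6 of 7 measured) did not exceed a sum of 736 on any array, and mature neuron markers did not exceed 725 on activated arrays and reached 8133 on quiescent replicate 1. The part of any of these cell types in the falls was not tested.

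The partners of these proteins were then described from 5 lists, by their counts and medians and with no test of a list, in activated cells against the mean of both quiescent groups. Over all 18193 genes 4.35% were called lower and 3.95% higher, and the median difference was 0. Of the 18 listed volume and ion handling partners 16 were measured, of which 8 fell, none rose and 8 did not pass, with a median of -2.21. Gpr37l1 and Gprc5b encode receptors that associate with the Mlc1 and GlialCAM complex. Gpr37l1 fell by 2.88 ± 0.31 (adjusted p = 0.00127). Gprc5b fell by 3.77 ± 0.81 (0.0290), a call lost without any 1 of 8 arrays (highest adjusted p 0.111).

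Kcnj10, the inward rectifier potassium channel gene of astroglial endfeet, fell by 2.24 ± 0.37 on the log2 scale (adjusted p = 0.00997), a call lost without activated replicate 2 (0.0507). Kcnj16, whose product pairs with that channel, fell by 4.18 ± 0.67 (adjusted p = 0.00845). Atp1b2, a beta subunit of the sodium pump, read 18750 to 21003 on quiescent, 19700 to 22191 on irradiated and 2024 to 6553 on activated arrays. It fell by 2.62 ± 0.32 (adjusted p = 0.00222). The sodium bicarbonate cotransporter gene Slc4a4 fell by 3.77 ± 0.34 (5.32e-04). Fxyd1, a regulator of the sodium pump, fell by 3.00 ± 0.28 (adjusted p = 5.98e-04). Another beta subunit gene, Atp1b1, fell by 1.04 ± 0.24 (0.0414), a call lost without any 1 of 7 arrays (highest adjusted p 0.159).

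The volume-regulated anion channel gene Lrrc8a differed by -2.68 ± 0.79 and did not pass (adjusted p = 0.0956). Clcn2, the chloride channel gene that GlialCAM binds, differed by -0.80 ± 1.18 (0.888) and was split within groups, at 256, 9 and 10 on the quiescent arrays. Trpv4, a cation channel gene, was near the lower limit on all arrays.

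Of the 16 measured genes of the endfoot anchoring complex, which ties the water channel to dystrophin and the basal lamina, 3 fell, none rose and 13 did not pass (median -1.03). Dag1, the dystroglycan gene, fell by 2.10 ± 0.31 (adjusted p = 0.00596) from 2929 ± 175 in quiescent (SD, n = 3) to 532, 502 and 1052 on the activated arrays. Dmd, the dystrophin gene, fell by 2.37 ± 0.27 (adjusted p = 0.00146). Sgcb, a sarcoglycan gene, fell by 3.05 ± 0.69 (0.0372), a call lost without any 1 of 8 arrays (highest adjusted p 0.149). Dtna, the dystrobrevin alpha gene, and Agrn, the agrin gene, differed by -1.23 ± 0.36 and -0.50 ± 0.66 and did not pass (adjusted p = 0.0973 and 0.847). Dtna passed with arrays scaled to a common 75th percentile (0.0361) and with averaged probe sets (0.0153).

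Most other genes of the channel families were not detected. All arrays were near the lower limit for 10 of the 14 measured connexin and pannexin genes, of which 1 rose and none fell, and for 9 of the 11 aquaporin genes. Panx1, a pannexin that forms membrane channels without making gap junctions, rose: it read 5 on all 7 quiescent and irradiated arrays and 75, 37 and 90 on the activated ones (1.93 ± 0.19, adjusted p = 7.66e-04). Since the former arrays give no level, the size of this rise depends on the pseudocount, and it ran from 0.91 to 3.42 over the settings. The oligodendrocyte connexin genes Gjc3 and Gjb1 exceeded 100 on 3 arrays and 1 array, respectively, and did not pass (-0.10 ± 1.4 and -0.35 ± 0.61). Gjc1, the connexin 45 gene, named after its values were seen, read 104, 316 and 438 on activated arrays, 291 on irradiated replicate 2 and 5 on the other 6 arrays, and did not pass (3.16 ± 0.92, adjusted p = 0.0948). Gjd2, the main neuronal connexin gene, and Panx2 did not exceed 10 on any array. None of these 11 aquaporin genes, which do not include Aqp4, passed in limma. None had an unadjusted p under 0.05 in this comparison (Aqp11 had 0.045 against irradiated cells alone). Aqp11 differed by -1.63 ± 0.72 (adjusted p = 0.300) and Aqp9 by -1.27 ± 0.66 (0.411). On activated arrays Aqp11 read 8, 16 and 8, below all others (21 to 312), a separation seen for 5.91% of all genes. Aqp1, the choroid plexus water channel, was near the lower limit on all arrays.

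Of the 12 measured genes that scaffold junctions or join cells beside them, 2 rose, 1 fell and 9 did not pass (median -0.31). Ctnnb1, the beta-catenin gene, rose from 4747, 5653 and 3982 in quiescent cells to 11070, 12496 and 12962 in activated cells (1.57 ± 0.16, adjusted p = 8.42e-04, and 3.09 with averaged probe sets). Dbn1, the gene of the actin-binding protein drebrin, rose by 3.29 ± 0.67 (adjusted p = 0.0237), a call lost without activated replicate 1 or 2 (highest adjusted p 0.0690) and with averaged probe sets (0.0613). Src, a kinase gene, fell by 4.16 ± 1.00 (adjusted p = 0.0462), a call lost without any 1 of 9 arrays (highest 0.170). The scaffold gene Tjp1, whose product ZO-1 binds connexin 43, differed by -0.12 ± 0.49 and the N-cadherin gene Cdh2 by -1.37 ± 0.38, and neither passed (adjusted p = 1.00 and 0.0771). Cdh2 passed with arrays scaled to a common 75th percentile (0.0298) and with averaged probe sets (0.0135). After irradiation none of the genes of the 5 lists was called by limma against unirradiated quiescent cells, where 0.011% of all genes were. Of the 69 measured, 4 had an unadjusted p under 0.05 (Csnk1d, Ctnnb1, Dmd and Lama2), as had 723 of all 18193 genes. The 4 are named only as a description.

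**Figure D4:**
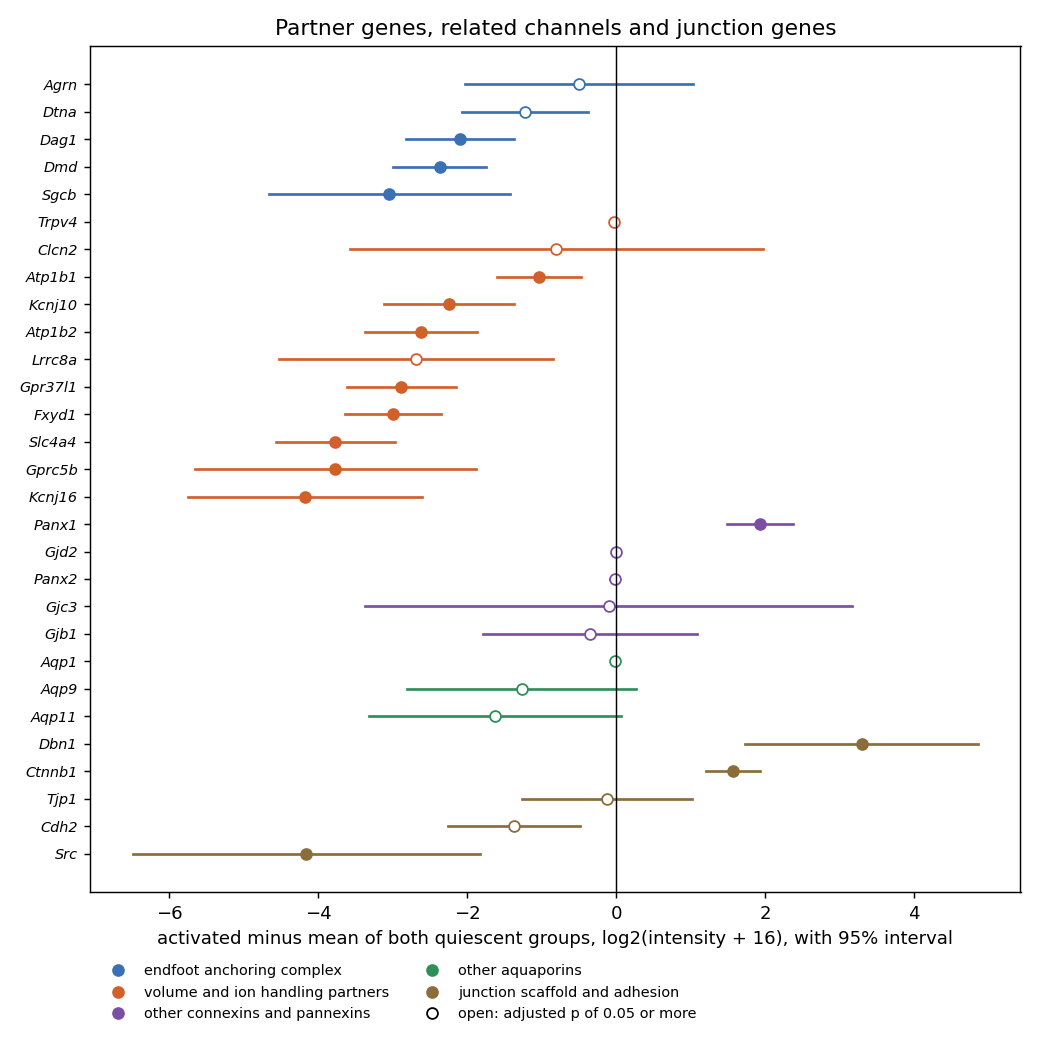
Differences in log2(intensity + 16) of the named genes of the 5 lists, activated cells against the mean of both quiescent groups, with 95% intervals; colours give the list and filled points passed an adjusted p of 0.05. The endfoot and ion handling genes lie left of 0, between -4.18 (Kcnj16) and -0.03 (Trpv4), while Panx1, Ctnnb1 and Dbn1 lie right of it.

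For each of the 6 genes, those with the most similar course over the 10 arrays were taken among 9847 other genes that exceeded 100 on at least 1 array, by Pearson's r on the log2 scale. All arrays share the step between quiescent and activated cells, so a high r mostly reflects that step and the values are a description. Aqp4 was most like Gpld1 (0.992), Slc3a2 (0.991) and Scara3 (0.990), and Gpld1 also had its lowest value, 10, on activated replicate 3. Gja1 was most like Rasa2 (0.995), the GABA receptor subunit gene Gabrg1 (0.994) and Cspg5 (0.992). Gjb6 was most like the lipid phosphatase gene Plpp3 (0.994), the protease inhibitor gene Cst3 (0.994) and the growth factor gene Ptn (0.991). Gjb2 was most like Tspan15 (0.982), the cytokine receptor gene Lifr (0.979) and Crim1 (0.976). Mlc1 was most like the podoplanin gene Pdpn (0.992), Scara3 (0.990) and Gpam (0.986), and Hepacam like the cathepsin B gene Ctsb (0.996), the metallothionein gene Mt1 (0.993) and Fam107a (0.991).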

How the data were processed

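Each array of the deposited table has a linear, whole-number intensity for every probe set. The method by which the authors computed the intensities is not given in the sources used here. Per the labels' protocols, total RNA was amplified with the NuGEN Ovation Pico system and labelled with biotin. Not analysed here were quiescent replicate 3 and activated replicate 4, whose columns were empty. Scan batches could not be tested.

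Of 45037 probe sets, 34945 had a single symbol in the platform annotation, and 34741 of these matched the RefSeq table by Entrez identifier. Each gene was read from its probe set with the highest mean. Intensities were taken as log2(intensity + 16), with no further normalization or filter. The tests are two-sided limma tests (limma 3.58.1 in R 4.3.3), from lmFit on group means across 10 arrays with 7 residual degrees of freedom and eBayes, adjusted over all genes. The fit was tested on simulated data with 200 of 18193 genes lowered in activated cells. Those lowered by 4 on the log2 scale were called in 16% of cases, with a median estimate of -3.69. In addition, 1 unchanged gene was called. In the data 1095 genes were called between activated and quiescent cells, and the adjusted p depends on how many genes change. The 16% is therefore not the share that the fit would call in the data.

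The 6 genes and the lists were chosen with earlier results of these data known. Named are the 6 genes, 25 listed genes whether or not called, up to 3 further called genes per list, and the 3 genes most like each of the 6. Of the 25, 3 are not reported here. Promoter sequences came from RefSeq (GRCm38.p6); 5 of the 6 genes had an entry. Alternatives were other pseudocounts, scalings, probe set choices, filters, moderation, array weights, fewer groups, the replicate number as a block and leaving out each array.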

Additional observations from a re-analysis of the deposited data

Results flagged for a closer look

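Among the 4 irradiated arrays, 43 probe sets or genes were checked for an array far from the other 3 on the log2 scale, by its gap to the nearest of them over the whole range. Chance flags about 1 in 20, and 6 were found. For Gja1, probe set 1415800_at read 18901 on irradiated replicate 1 against 15734 to 15933 on the others (ratio 0.931), a small difference in size. For Sgcb the same replicate read 222 against 432 to 465 (0.899). On irradiated replicate 2, Clcn2 read 9 against 237 to 290 (0.924), Gjb1 129 against 5 on each of the others (1), and Tjp1 413 against 1569 to 1931 (0.864). Gjc3 read 245 on irradiated replicate 3 against 7 to 9 (0.966).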

How the results depend on the processing

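Over the alternatives run, each of the 6 genes kept its lower value in activated cells, and Gja1 and Gjb2 kept their calls in all 3 comparisons of activated cells. Calls of the 6 genes ranged, without each array in turn, from 3 to 6 against quiescent, 4 to 6 against irradiated and 5 to 6 against the mean of both. Those of the probe sets ranged from 11 to 14, 12 to 14 and 12 to 14. Over all 18193 genes, in either direction, calls then ranged from 784 to 1051, 937 to 1228 and 1034 to 1396. Against quiescent cells 5 of the 6 were called with quantile normalization, scaling to the 75th percentile or trend and robust moderation, and 6 with averaged probe sets or without the dimmest 50% of genes. With only the groups compared, 2 of the 6 were called against quiescent cells (694 genes in all, and 0 between the quiescent groups). No pairing by replicate number was seen across genes, with correlations of -0.03 to 0.02 between the deviations of same-numbered arrays. A batch shared by only some genes was not tested. With the replicate number as a block, 2 of the 6 were called in each comparison of activated cells. In all, 459 genes were called against quiescent, 710 against irradiated, 793 against the mean of both and 0 between the quiescent groups. The 2 genes called between the quiescent groups became 4 with a pseudocount of 1 and 1 with quantile normalization, trend and robust moderation or array weights, and 0 to 46 without each array. Pairs called fell from 11 to 7 with a pseudocount of 64 and ranged from 0 to 11 without each array.

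Reversals, which here include a move to or from 0, were all in differences that did not pass in the setting used for the text. Gjd2, Gjb1 and Aqp1 only moved to or from 0. With a pseudocount of 64, Aqp4 minus Gjb6 became -0.17, Aqp4 minus Gjb2 -0.96 and Gjb6 minus Gjb2 -0.80; the last was -0.0323 with quantile normalization and -0.0192 with scaling to the 75th percentile. Between the quiescent groups Aqp4 was -0.14 with averaged probe sets and Gjb6 0.0857 with the replicate block, and Gjd2 in activated cells -0.0103 with scaling. Without each array, Aqp4 minus Gjb6 ranged from -0.52 to 1.18, Aqp4 minus Gjb2 from -0.68 to 2.02, Gjb6 minus Gjb2 from -0.82 to 0.84, Gja1 minus Mlc1 from -0.071 to 0.79, Mlc1 between the quiescent groups from -0.0921 to 0.17, Gjc3 from -1.18 to 0.68, Gjb1 from -0.46 to 0, Panx2 from -0.0304 to 0.0032 and Aqp1 from -0.0168 to 0. The cause was not tested. Values near the lower limit carry no level, which bounds what can be said of Gjb2 in activated cells.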
